A study of Mus musculus with 2 samples.

Results

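The genes described here are G protein alpha, beta and gamma subunits, numbered regulators of G protein signalling (RGS proteins), adenylyl cyclases and phosphodiesterases of mouse hypothalamic nuclei. Members were chosen by symbol alone and not by any measured difference, and each had to have transcripts in at least 20 of the 11409 barcodes that the matrix lists. Of 83 matching symbols, 7 were below this minimum, and 76 met it out of 19010 genes that did so. An antisense non-coding RNA shares the symbol pattern without encoding a G protein and was left out, which left 75 protein-coding members. They comprised 13 alpha, 5 beta and 10 gamma subunits, 18 RGS proteins, 8 cyclases and 21 phosphodiesterases. Just inside the minimum lay Rgs21 with 21 barcodes, Gng8 with 25, Gnat2 with 28 and Gng11 with 29, and just outside it lay Rgs1 with 11, Pde4c with 9 and Adcy4 with 6, followed by Gnat3, Rgs5 and Rgs18 with 4 each and Gnat1 with 0.

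Receptors coupled to Gs or Golf raise cyclic AMP (cAMP) by activating adenylyl cyclases, those coupled to Gi, Go or Gz lower it, and those coupled to Gq or G11 act through phospholipase C beta. RGS proteins speed the hydrolysis of GTP on alpha subunits and so shorten the signal, and phosphodiesterases (PDEs) break down cAMP, cyclic GMP (cGMP) or both. In the hypothalamus these proteins lie downstream of the receptors for melanocortins, neuropeptide Y, opioids, dopamine and many other peptides and amines.

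The nuclei came from wild type male C57BL/6J mice aged 10 to 12 weeks with no treatment named, were stained for NeuN, a protein of neuronal nuclei, sorted and sequenced as 1 pooled library on the 10x Genomics platform. Hashtags, barcoded antibodies that label the nuclei of a preparation before pooling, carried the names ARC (arcuate nucleus) and PVH (paraventricular hypothalamus) and marked preparations and not mice, so each side is 1 sample, no test was possible and every interval below covers counting error only. The ARC hashtag was assigned to 3767 nuclei with a median of 4827 unique molecular identifiers (UMIs, each 1 captured RNA molecule) and the PVH hashtag to 3074 nuclei with a median of 5039. Sim1, a transcription factor of paraventricular neurons, was at 10.6 CPM (a gene's summed UMIs relative to all UMIs of the group) on the ARC side and 109 on the PVH side, while the neuronal gene Snap25 was at 696 and 685 CPM. Each side was clustered without the member genes among the variable genes, which gave 13 ARC and 14 PVH clusters, all read as neuronal, of which 8 and 7 could be named from their markers. ARC cluster 2 (572 nuclei) and PVH cluster 1 (550 nuclei) stand apart, since they also passed markers of oligodendrocytes and astrocytes, with Mobp of oligodendrocytes among their 10 leading genes, and ARC cluster 2 held Sim1 at 59.2 CPM against 0 to 4.19 CPM in the other ARC clusters. Values without them are given beside the results they move most.

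Promoter sequence was available for 57 of the 75 members in RefSeq's windows on GRCm38.p6, each running from 250 bases before to 50 bases after a transcript start. The CRE, the cAMP response element TGACGTCA bound by CREB, was in none of the 90 windows of members and in 1.79% of all 32851 windows. Its partial forms TGACG or CGTCA, both strands, were in 18 of the 90 windows and in 20.8% of all windows. AAAGGTCA or TGACCTTT, the NBRE to which NR4A nuclear receptors bind, was in 1 window of members, that of Adcy7, and in 1.51% of all windows. Windows are shown for 4 members on which the comparison of clusters turns, with these letters in capitals where present, as a description of the sequence and not as sites of binding. Adcy7 has 3 windows and Pde4b has 4, and for each the window that holds such letters is shown.
Adcy7, chr8:88282742-88283041, plus strand: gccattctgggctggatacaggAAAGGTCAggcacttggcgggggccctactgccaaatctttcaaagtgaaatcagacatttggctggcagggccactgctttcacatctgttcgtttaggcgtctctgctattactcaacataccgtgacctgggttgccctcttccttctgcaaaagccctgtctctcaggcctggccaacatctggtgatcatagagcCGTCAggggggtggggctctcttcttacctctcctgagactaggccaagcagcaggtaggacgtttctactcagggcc
Pde4b, chr4:102421305-102421604, plus strand: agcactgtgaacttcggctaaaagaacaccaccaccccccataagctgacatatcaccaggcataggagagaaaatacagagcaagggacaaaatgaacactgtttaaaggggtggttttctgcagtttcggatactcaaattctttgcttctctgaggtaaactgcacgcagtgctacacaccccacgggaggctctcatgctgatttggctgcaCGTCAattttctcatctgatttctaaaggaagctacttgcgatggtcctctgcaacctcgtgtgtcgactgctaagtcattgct
Pde7b, chr10:20548279-20548578, minus strand: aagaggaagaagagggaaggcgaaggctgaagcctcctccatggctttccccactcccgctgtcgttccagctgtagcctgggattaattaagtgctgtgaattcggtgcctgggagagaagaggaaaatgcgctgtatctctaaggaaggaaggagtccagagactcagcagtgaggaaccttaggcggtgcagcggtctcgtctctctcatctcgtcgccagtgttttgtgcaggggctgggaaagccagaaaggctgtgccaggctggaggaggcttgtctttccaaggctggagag
Rgs6, chr12:82617249-82617548, plus strand: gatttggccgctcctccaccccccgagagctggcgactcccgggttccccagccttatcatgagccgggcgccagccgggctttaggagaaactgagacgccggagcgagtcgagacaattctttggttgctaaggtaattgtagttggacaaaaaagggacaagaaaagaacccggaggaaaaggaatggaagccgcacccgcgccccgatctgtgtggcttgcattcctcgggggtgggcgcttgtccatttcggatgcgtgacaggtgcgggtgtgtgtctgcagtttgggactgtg
The windows of Pde7b and Rgs6 held none of these letters.

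UMIs per kilobase of annotated exon were summed over the nuclei assigned to the ARC or PVH hashtag. Among alpha subunits they were most for Gnaq, a Gq subunit, at 1684, followed by the Gi/o subunits Gnai1 at 1089 and Gnao1 at 1025. On the same per-length scale Gnb1 led the beta subunits at 1564, Gng3 the gamma subunits at 1715 and Gng2 followed at 1180. Rgs7, an R7 RGS protein that acts on Gi/o subunits, led the RGS genes at 2465, and Rgs17, of the RZ group, followed at 1065. Adcy2, a cyclase stimulated by beta-gamma subunits, led the cyclases at 1483. Among phosphodiesterases Pde4d, specific for cAMP, was at 4153, Pde4b at 1780, the dual-specificity Pde10a at 1749 and the calmodulin-dependent Pde1a at 1148. Other role groups were led by Gna12 (370), Gnal (444), Rgs2 of the R4 group (132), Rgs10 of the R12 group (299), Rgs22 (130), Adcy8 of the calcium-stimulated cyclases (206), Adcy5 of the calcium-inhibited ones (331) and Adcy9 (569). Pde6d (656) came first in the cGMP group as it was listed here, ahead of Pde9a (388). These values are per exon length, although nuclear RNA also holds introns. Rgs6, Rgs20, Adcy2, Adcy10, Pde4d, Gnaq and Gnal each overlap at least 4 other annotated genes, some on the same strand and some on the opposite strand. Reads of those on the same strand may have been shared in the counting.

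Of 66 members with at least 50 UMIs over both sides, 8 were at least 1.5-fold higher in PVH (12.1%, against 5.53% of all 15846 genes counted alike) and 4 were at least 1.5-fold higher in ARC (6.06%, against 5.26%). The share on the ARC side was near that of all genes. The members higher in PVH were 2 cyclases, 4 RGS genes and 2 phosphodiesterases. No alpha or gamma subunit was among them. The median log2 ratio of PVH over ARC was −0.08 over the 66 members and −0.05 over all genes.

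Adcy8, a calcium-calmodulin-stimulated cyclase, was at 23.3 CPM in ARC (455 UMIs) and 73.1 CPM in PVH (1223 UMIs), a log2 ratio of 1.65 (interval 1.49 to 1.81). Adcy7, a cyclase stimulated by beta-gamma subunits, was at 11.1 CPM in ARC and 23.7 in PVH, a log2 ratio of 1.09 (0.85 to 1.33). Both cyclases were higher in PVH within GABAergic clusters, at log2 ratios of 2.22 and 1.49, and within glutamatergic clusters, at 1.01 and 1.05. Without ARC cluster 2 and PVH cluster 1 the log2 ratio was 2.37 for Adcy8 and 1.12 for Adcy7. The other 2 cyclases of the same types, Adcy1 and Adcy2, were at log2 ratios of 0.52 and 0.45, below the fold.

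The R4 genes Rgs8, Rgs16 and Rgs3, small GTPase-activating proteins, were higher in PVH at log2 ratios of 0.73 (0.47 to 0.98), 0.68 (lower bound 0.16) and 0.62 (0.30 to 0.95). Within GABAergic clusters these log2 ratios were 1.11, 1.46 and 0.87, and within glutamatergic clusters 0.34, 0.07 and 0.34, below the fold. Without the clusters that held glial markers Rgs16 was at 1.03. Rgs10, a small R12 member, was at 11.4 CPM in ARC and 17.2 in PVH, a log2 ratio of 0.59 (0.33 to 0.85). Pde4b was at 415 CPM in ARC and 640 in PVH, a log2 ratio of 0.62 (0.58 to 0.67) that was 0.56 within GABAergic and 0.17 within glutamatergic clusters and 0.97 without the clusters that held glial markers. Pde1c, stimulated by calcium-calmodulin, was at 58.6 and 104 CPM, a log2 ratio of 0.83 (0.72 to 0.94), and this was 0.84 within glutamatergic clusters but −0.18 within GABAergic clusters.

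On the ARC side the largest difference was that of Gnb3, a beta subunit known from cone photoreceptors, which had 90 UMIs (4.62 CPM) in ARC and 10 UMIs (0.598 CPM) in PVH, a log2 ratio of −2.95 (−4.06 to −2.00). Rgs9, an R7 gene known from the striatum and retina, was at 141 CPM in ARC and 80.6 in PVH, a log2 ratio of −0.80 (−0.90 to −0.71). It was lower in PVH within GABAergic clusters, at −0.94, and within glutamatergic clusters, at −0.39. Gna14, a Gq subunit, was at 3.69 CPM in ARC and 1.61 in PVH, a log2 ratio of −1.19 (−1.89 to −0.54) that was −0.88 without the clusters with glial markers, and Pde5a, which hydrolyses cGMP, was past the fold at −0.82 with an interval that held 0 (−1.69 to 0.01). Of the 3 other R7 genes, Rgs6, Rgs7 and Rgs11, none was past the fold, at log2 ratios of −0.27, −0.14 and −0.36.

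**Figure D1:**
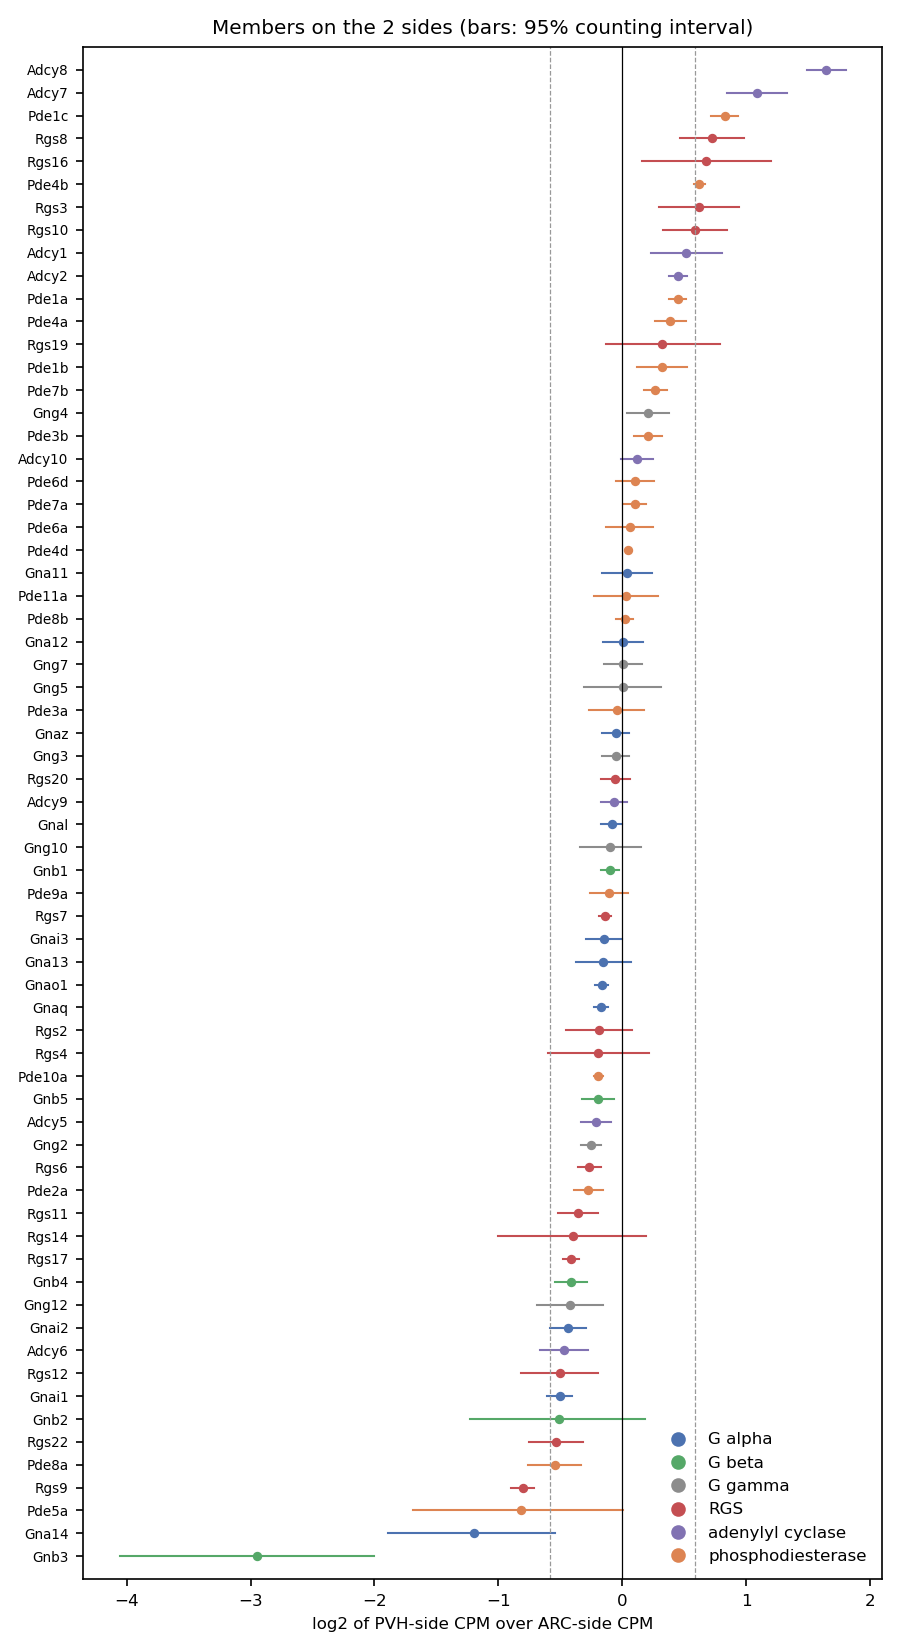
The log2 ratio of PVH-side over ARC-side CPM is plotted for the 66 members with at least 50 UMIs, with points coloured by family, bars for the 95% counting interval and dashed lines at 1.5-fold. Adcy8 at 1.65 and Gnb3 at −2.95 lie at the ends, and most alpha, beta and gamma subunits lie between the dashed lines.

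Within each side, clusters were split by transmitter, a cluster being called glutamatergic where Slc17a6 was above Slc32a1 in CPM. The margin was small in PVH cluster 3 (342 nuclei), at 56.9 against 45.9 CPM, and in ARC cluster 2, at 46.2 against 38.2 CPM. How far the PVH ratios depend on cluster 3 was not tested. Of 64 members counted in ARC, 3 were at least 1.5-fold higher in GABAergic clusters (background 4.10%) and 10 in glutamatergic clusters (15.6%, background 5.17%). Of 61 members counted in PVH, 6 were higher in GABAergic clusters (9.84%, background 3.93%) and 10 in glutamatergic clusters (16.4%, background 6.22%). Without ARC cluster 2, 10 of 62 members were higher in ARC GABAergic clusters (background 5.95%) and 8 in glutamatergic clusters (background 4.95%).

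Pde4b and Pde3a were higher in glutamatergic clusters on both sides. With all clusters included, no member was higher in GABAergic clusters on both. Pde4b was at 232 CPM in GABAergic and 682 in glutamatergic ARC clusters, a log2 ratio of −1.55 (−1.62 to −1.49), and at 342 and 766 CPM in PVH, a log2 ratio of −1.16 (−1.24 to −1.09). Pde3a, a dual-specificity enzyme that cGMP inhibits, was at 14.9 and 25.2 CPM in ARC (log2 −0.76, −1.06 to −0.46) and at 9.02 and 22.6 CPM in PVH (log2 −1.32, −1.81 to −0.86). Summed over clusters, both genes thus stood higher in the glutamatergic class by more than the counting error on either side. Single glutamatergic clusters did not all share this. In PVH, clusters 10 and 6 held 97 and 56 of the 265 glutamatergic UMIs of Pde3a, and glutamatergic clusters 4 and 8 held none. In ARC, Pde3a was at 47.8 CPM in glutamatergic cluster 7 and 47.3 CPM in the GABAergic SST-like cluster. Pde4b was at 102 CPM in the glutamatergic POMC-like cluster of ARC. Without ARC cluster 2, Adcy7 and Pde7b were past the fold in ARC GABAergic clusters, as they were in PVH GABAergic clusters.

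On the ARC side the other members higher in glutamatergic clusters included Adcy8 at a log2 ratio of −1.71 (−2.01 to −1.42), which was −0.85 without ARC cluster 2. Adcy1, the other calcium-stimulated cyclase, was at 6.23 CPM in GABAergic and 14.6 in glutamatergic clusters, a log2 ratio of −1.23 (−1.68 to −0.80). Pde11a was at −1.19 (−1.56 to −0.83) and Pde10a, the main striatal phosphodiesterase, at −0.70 (−0.75 to −0.65). Gna14, Rgs16, Rgs8 and Rgs20 completed the list at −0.87, −0.65, −0.64 and −0.62, of which the interval of Rgs16 held 0 (−1.46 to 0.16). Without ARC cluster 2, Gna14 (at −0.09), Rgs16 and Rgs20 were no longer on the list, and Pde8a was. Higher in GABAergic clusters were Gnb3 at 1.08 (0.37 to 1.85), Rgs6 at 1.03 (0.89 to 1.16) and Rgs9 at 0.72 (0.60 to 0.84), the last 2 being R7 genes. The AGRP-like cluster 1 alone held 1373 of the 1731 GABAergic UMIs of Rgs6 and 46 of the 68 of Gnb3. Rgs6 was also at 202 CPM in GABAergic cluster 6. It was at 8.89 to 28.4 CPM in the SST-like, GHRH-like and dopaminergic-like clusters, below the 73.5 CPM of the glutamatergic class.

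On the PVH side Pde1c was at 43.3 CPM in GABAergic and 130 in glutamatergic clusters, a log2 ratio of −1.59 (−1.80 to −1.38). Rgs22 was at 7.61 and 20.2 CPM, a log2 ratio of −1.41 (−1.94 to −0.91). Rgs6, higher in GABAergic clusters in ARC, was here at 66.1 CPM in GABAergic and 113 in glutamatergic clusters, a log2 ratio of −0.77 (−0.95 to −0.59). The gamma subunits Gng5 (−0.78) and Gng12 (−0.66) and the RGS genes Rgs11 (−0.65), Rgs19 (−0.66) and Rgs4 (−0.59) lay on the same side of 0, and the intervals of Rgs19 (−1.50 to 0.11) and Rgs4 (−1.39 to 0.14) held 0. Higher in GABAergic clusters were Adcy7 at 0.91 (lower bound 0.62), Rgs16 at 0.74 (0.04 to 1.43), Pde2a at 0.63, Pde7b at 0.62, Gng7 at 0.60 and Pde6a at 0.59.

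**Figure D2:**
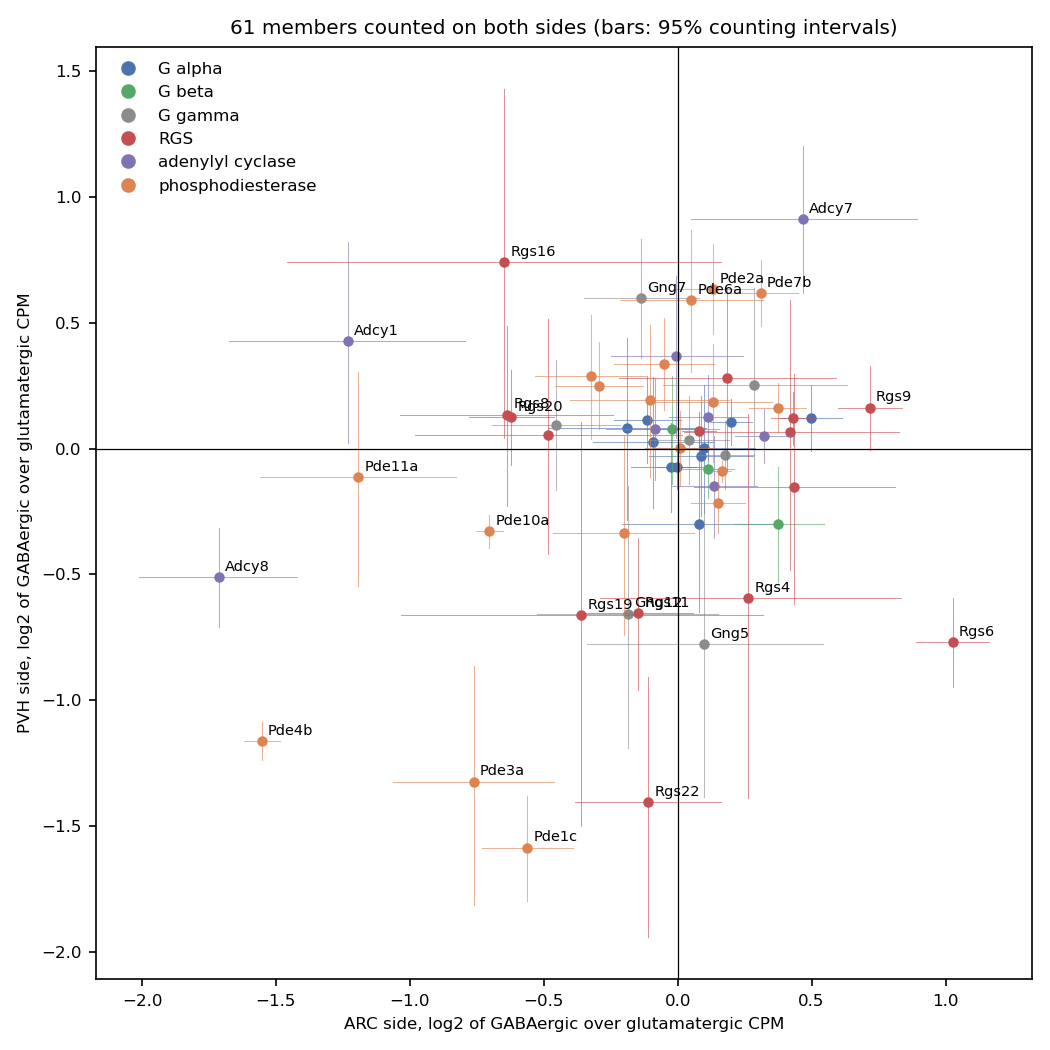
The log2 ratio of GABAergic over glutamatergic CPM is plotted for 61 members, with the ARC side on the x axis, the PVH side on the y axis and bars for the 95% counting intervals. Pde4b and Pde3a lie at the lower left on both axes, and Rgs6 lies at the lower right, at 1.03 in ARC and −0.77 in PVH.

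Single clusters were compared next. In ARC, 21 of 64 members were at least 2-fold higher in their highest cluster than in the other neurons of the side (32.8%, against 23.0% of all 14259 genes), and in PVH 21 of 61 were (34.4%, against 24.3% of 13902). Of 61 members counted on both sides, 13 passed on both (21.3%, against 13.6% of all genes), 6 in ARC and not in PVH (9.84%, against 7.02%) and 8 in PVH and not in ARC (13.1%, against 9.47%). Of the same 61 members 29 were past no fold in any comparison (47.5%, against 67.8% of all genes), and these included 10 alpha subunits (Gnai1, Gnai2, Gnai3, Gnao1, Gnaz, Gnaq, Gna11, Gna12, Gna13 and Gnal) along with Gnb1, Gnb5, Rgs7, Rgs17, Pde4d and Pde8b. In ARC the highest cluster of Gnao1 was 1.26-fold, that of Gnaq 1.24-fold and that of Gnb1 1.11-fold over the other neurons. Gna14 was the exception among the alpha subunits counted, and the members past the fold were mostly cyclases, phosphodiesterases and RGS genes.

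**Figure D3:**
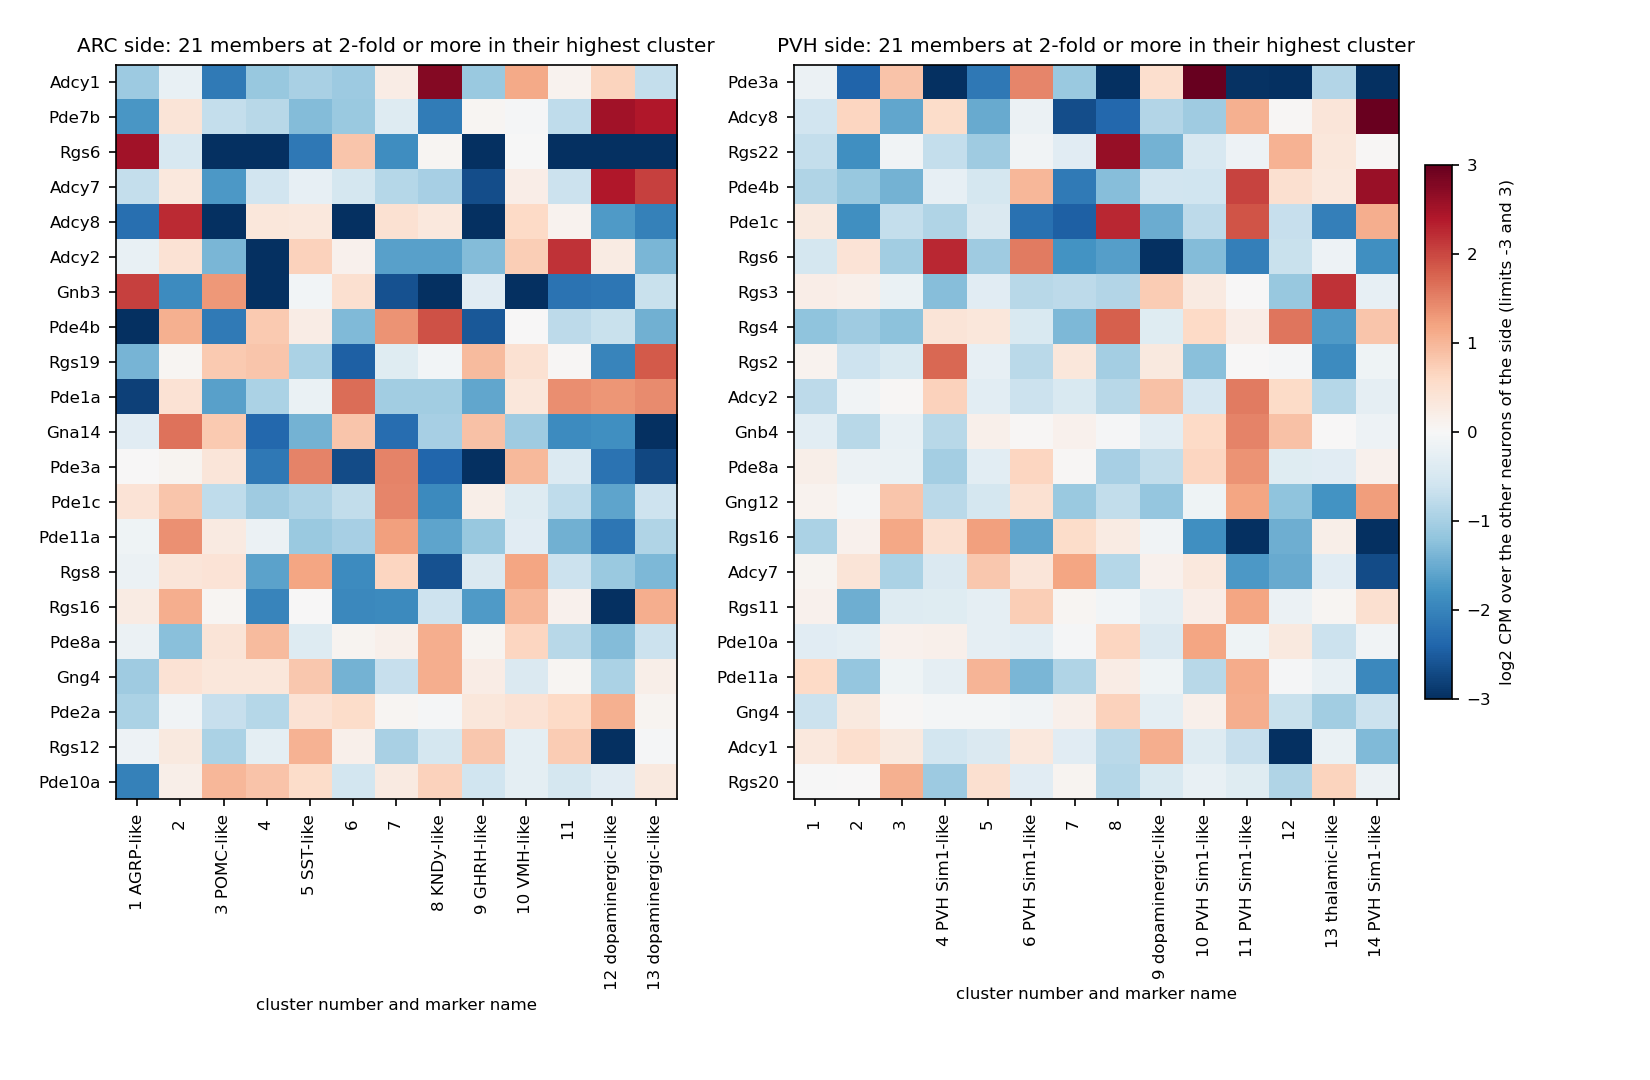
The log2 ratio of each cluster over the other neurons of its side is coloured for the 21 members per side at 2-fold or more in their highest cluster, with clusters in columns by number and marker name and colour limits at −3 and 3. In ARC the darkest red of Rgs6, Adcy1, Pde7b and Adcy7 falls in the AGRP-like, KNDy-like and dopaminergic-like clusters, and in PVH cluster 11 holds 10 members past 2-fold.

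The AGRP-like cluster (ARC cluster 1, 729 nuclei), of neurons that drive feeding, was marked by Rgs6, whose protein pairs with Gnb5 and turns off Gi/o subunits. Over the 13 ARC clusters Rgs6 ranged from 8.89 CPM, in dopaminergic-like cluster 13, through a median of 28.4 to 348 CPM in the AGRP-like cluster, 5.75-fold over the other neurons (log2 2.52, 2.40 to 2.64). The second highest was cluster 6, led by Htr3b and Vgll3, at 202 CPM, and the intervals of these 2 clusters did not overlap. Gnb3 followed at 11.7 CPM (46 of its 90 UMIs), 4.12-fold over the other neurons, with the POMC-like cluster next at 10.2 CPM and intervals that overlapped. The KNDy-like cluster, the VMH-like cluster and cluster 4 had no UMI of Gnb3, which allows at most 3.52, 3.35 and 2.82 CPM.

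In the same AGRP-like cluster Rgs2, which prefers Gq, was at 22.8 CPM (log2 0.95), and Gnal, Rgs9 and Adcy5 also had their highest ARC levels there, at 1.78-fold, 1.74-fold and 1.25-fold over the other neurons. At the other end Pde4b was at 61.8 CPM against 505 in the other neurons (log2 −3.03, −3.22 to −2.85). Pde1a was at 28.4 against 197 CPM (log2 −2.80) and Adcy8 at 5.83 against 27.8 CPM (log2 −2.25). The lowest ARC levels of Pde4b, Pde1a, Pde10a and Pde2a fell in the AGRP-like cluster. Those of Pde7b, Pde8b, Pde1b, Pde1c and Pde9a fell in the KNDy-like cluster, so such minima were not particular to the AGRP-like cluster.

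The POMC-like cluster (ARC cluster 3, 286 nuclei), of neurons that make melanocortins, had the highest ARC level of Pde10a, at 1213 CPM (log2 1.00, 0.93 to 1.07), against 191 CPM in the AGRP-like cluster. Its Gnb3 was at 10.2 CPM (log2 1.31) and its Rgs19 at 6.58 CPM from 11 UMIs (log2 0.79, −0.28 to 1.71). Its lowest members were Adcy8 at 2.39 CPM (log2 −3.40), Rgs6 at 15.5 CPM (log2 −3.05) and Pde4b at 102 CPM (log2 −2.12). Pde4b was thus low in both the AGRP-like and the POMC-like cluster, while Rgs6 was high in the former and low in the latter.

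The KNDy-like cluster (ARC cluster 8, 210 nuclei), of neurons that make kisspeptin, neurokinin B and dynorphin, had the highest ARC levels of Adcy1 and Pde4b. Adcy1 ranged from 2.39 CPM over a median of 5.92 to 49.6 CPM in this cluster, 6.73-fold over the other neurons (log2 2.75, 2.26 to 3.22). The VMH-like cluster was second, with an interval that did not overlap. Pde4b ranged from 61.8 CPM over a median of 264 to 1354 CPM here (log2 1.90, 1.82 to 1.99), and cluster 7, led by Alk and Car12 among others, was second at 963 CPM. Pde8a, a cAMP-specific enzyme, at 50.6 CPM (log2 1.09), and Gng4, at 60.1 CPM (log2 1.08), were past the fold as well. Rgs4 and Gnb3 had no UMI in this cluster (at most 3.52 CPM each) and Rgs8 had 2 (log2 −2.61).

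In the dopaminergic-like clusters (ARC clusters 12 and 13, 183 and 132 nuclei) Pde7b and Adcy7 stood highest together. Cluster 12 passed the dopaminergic markers Th, Slc6a3, Slc18a2, Ddc and Lhx1. Cluster 13 passed Th, Slc18a2 and Lhx1 but not Slc6a3 or Ddc. Pde7b, which hydrolyses cAMP, ranged from 23.9 CPM over a median of 62.2 to 459 CPM in cluster 12 and 452 in cluster 13, 5.75-fold over the other neurons in the former (log2 2.52, 2.37 to 2.68). Adcy7 ranged from 1.85 CPM over a median of 7.64 to 48.8 CPM in cluster 12 (46 UMIs, log2 2.41, 1.90 to 2.88) and 41.5 in cluster 13 (28 UMIs). The intervals of these 2 clusters overlapped for both genes, and every other ARC cluster was at or below 123 CPM for Pde7b and 13.3 CPM for Adcy7. Pde1a was also past 2-fold in both, at 380 and 409 CPM, and Pde2a, a cGMP-stimulated enzyme, in cluster 12 at 154 CPM (log2 1.07). Rgs19 in cluster 13 was at 13.3 CPM from 9 UMIs (log2 1.84, 0.65 to 2.85). Rgs6 was at 9.56 CPM in cluster 12 (log2 −3.70) and 8.89 in cluster 13 (log2 −3.79), and Rgs12 had 1 UMI in cluster 12. Rgs16 had no UMI in cluster 12 (at most 3.92 CPM), and Rgs14 and Gna14 had none in cluster 13 (at most 5.46 CPM each).

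On the PVH side the highest levels of Adcy7, Pde7b, Pde2a and Pde1a all fell in cluster 7 (195 nuclei), which could not be named. Those of Gnao1, Gnai2, Gna11, Gna12, Pde6a and Pde6d fell there too, each below 2-fold over the other neurons. Such maxima were thus not particular to the genes high in the ARC dopaminergic-like clusters, and the matching share of all genes was not tested. The cluster passed the dopaminergic markers Slc6a3, Slc18a2 and Lhx1 but not Th. Adcy7 was at 50.6 CPM there (log2 1.19, 0.72 to 1.64), Pde7b at 215 CPM (log2 0.93), Pde2a at 121 CPM (log2 1.00) and Pde1a at 393 CPM (log2 0.88). The interval of the level overlapped that of the second highest cluster for Adcy7, Pde7b and Pde2a, but not for Pde1a. Of the 4 genes, Adcy7 alone was past 2-fold in PVH, where its level over the 14 clusters ranged from 3.76 CPM over a median of 21.8.

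**Figure D4:**
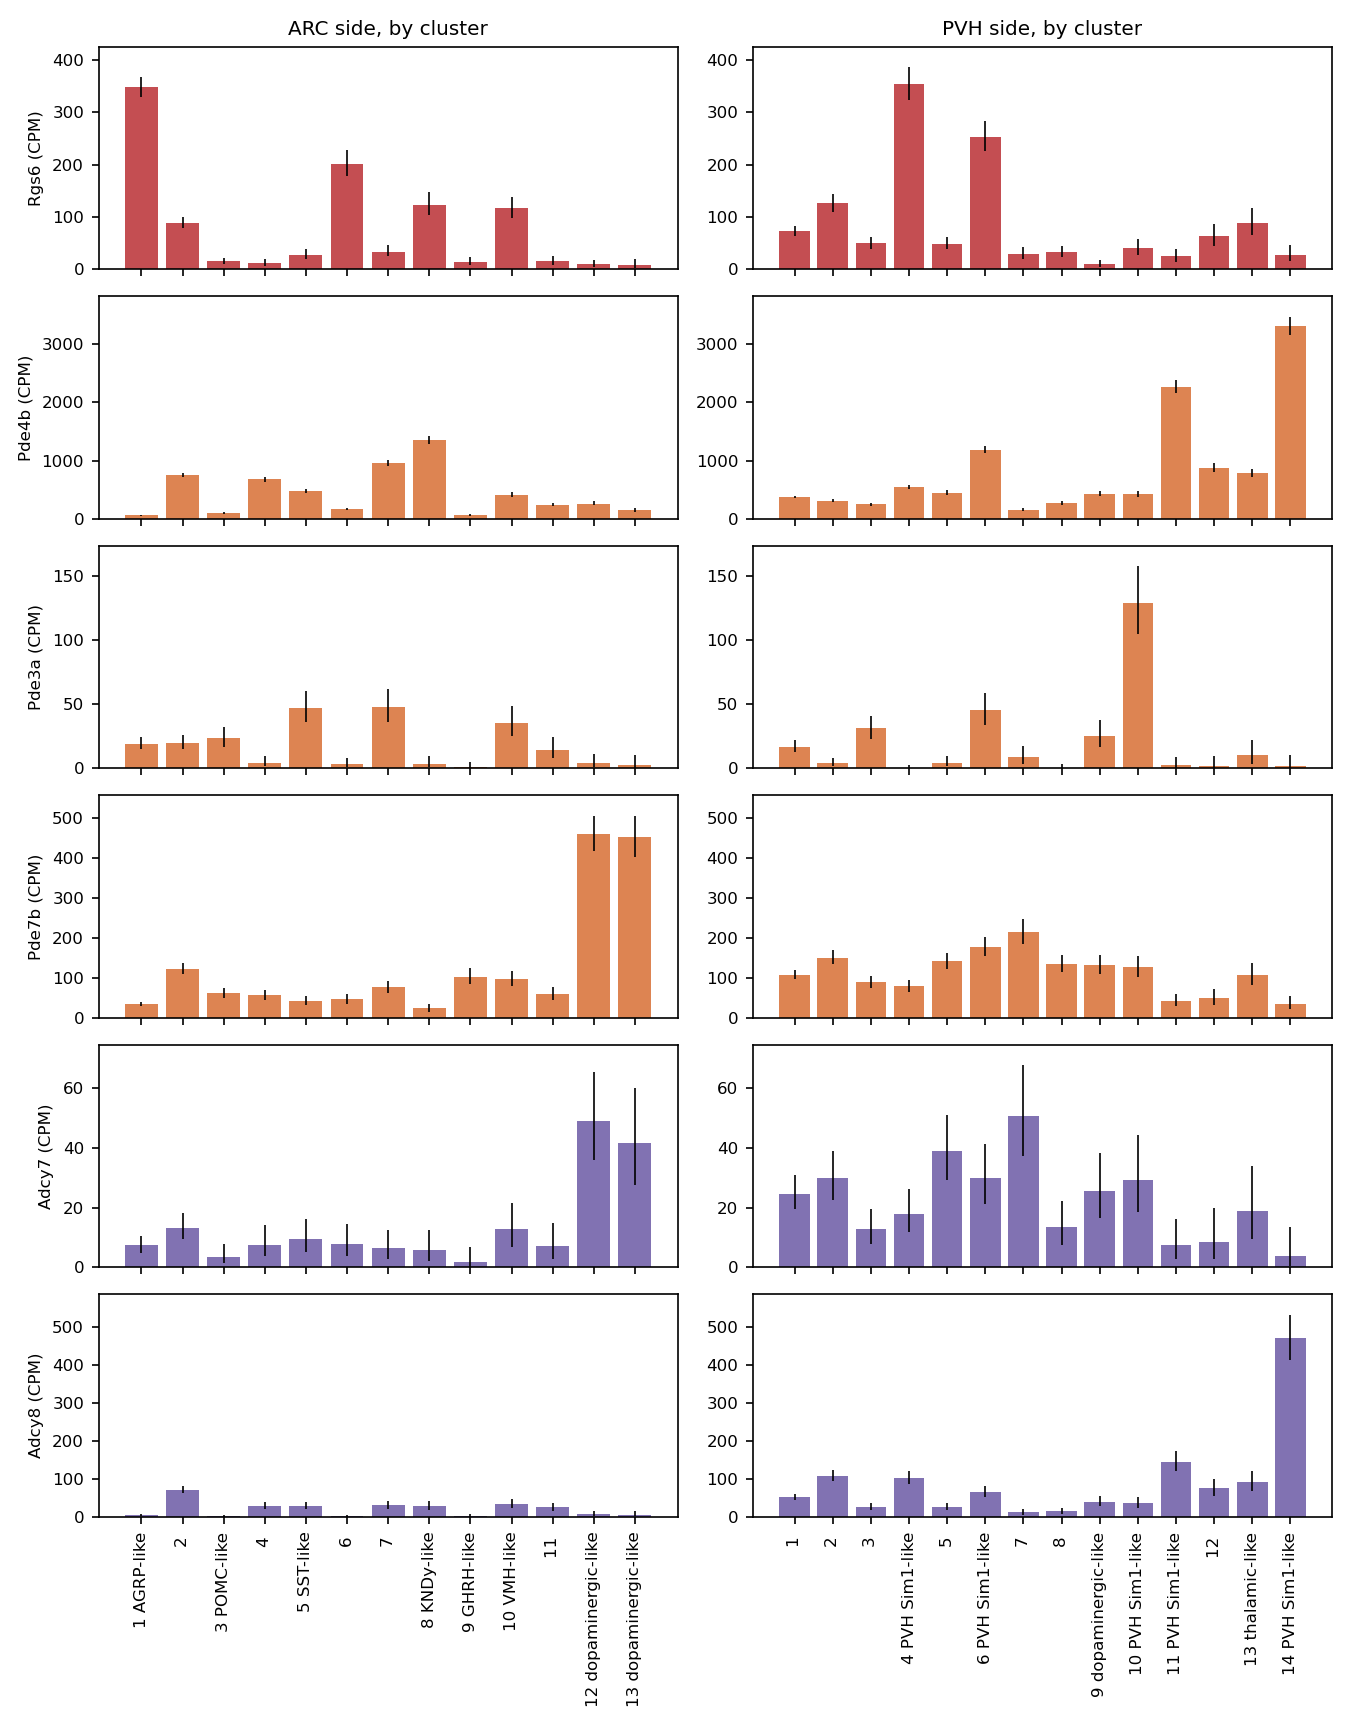
CPM in each cluster is drawn as bars from 0 for Rgs6, Pde4b, Pde3a, Pde7b, Adcy7 and Adcy8, with ARC clusters at the left and PVH clusters at the right on 1 scale per gene and 95% Poisson intervals as lines. Rgs6 peaks at 348 CPM in the AGRP-like cluster and 354 CPM in PVH cluster 4, and Adcy8 peaks at 472 CPM in PVH cluster 14.

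In the SST-like cluster (cluster 5, 271 nuclei) Pde3a was at 47.3 CPM (log2 1.48, 1.07 to 1.87), Rgs8 at 23.3 CPM (log2 1.19) and Rgs12 at 23.3 CPM (log2 1.05), while Rgs6 (log2 −2.14) and Rgs2 (log2 −1.53) were its lowest members with Gna14, which had 2 UMIs (log2 −1.41, −4.48 to 0.50). In the VMH-like cluster (cluster 10, 196 nuclei) Rgs8 was at 23.6 CPM (log2 1.19), Adcy1 at a log2 ratio of 1.15 and Rgs16 at 5.45 CPM from 6 UMIs (log2 1.00, −0.51 to 2.23), and Gnb4 (log2 −1.43) and Rgs22 (log2 −1.44) were low. In the GHRH-like cluster (cluster 9, 204 nuclei) no member reached 2-fold. Its largest ratios were those of Rgs19, Gna14 and Rgs12 (log2 0.94, 0.87 and 0.81, the first 2 with intervals that held 0), and Pde3a had 1 UMI there (log2 −4.45, −9.75 to −1.96), with Adcy8 at 2.77 CPM and Rgs6 at 14.8 CPM.

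Among unnamed ARC clusters, cluster 11, led by Tbx19, Pirt and Chrm2 among others, had Adcy2 at 563 CPM (log2 2.16, 2.02 to 2.30), against a range of 15.3 to 237 CPM in the other clusters. Cluster 6 had the highest Pde1a, at 454 CPM (log2 1.67), and cluster 7 the highest Pde3a (47.8 CPM), Pde1c (145 CPM, log2 1.46) and Pde11a (29.5 CPM, log2 1.23). In ARC cluster 2, with its glial markers and Sim1, Adcy8 was at 71.4 CPM (log2 2.24, 1.97 to 2.52) and Gna14 at 8.75 CPM from 25 UMIs (log2 1.63). Without that cluster the highest remaining ARC cluster of Adcy8 and that of Gna14 were each at a log2 ratio of 1.33. The part of glial RNA or of mis-assigned hashtags in these 2 values was not tested.

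PVH clusters 4, 6, 10, 11 and 14 were Sim1-like, with Sim1 at 205 to 391 CPM, and shared some of the members past 2-fold. Rgs6 was past it in clusters 4 and 6 and Pde3a in clusters 6 and 10. Every member past it in cluster 14 was past it in cluster 11 too. In cluster 4 (300 nuclei, led by Scgn and Agtr1a among others) Rgs6 was at 354 CPM (log2 2.25, 2.10 to 2.40) and Rgs2 at 33.7 CPM (log2 1.71, 1.22 to 2.19), and the interval of Rgs6 lay above that of every other PVH cluster. Rgs19 followed from 13 UMIs (log2 0.92, −0.05 to 1.79), and Pde6a (log2 −1.34) and Rgs3 (log2 −1.28) were low beside Pde3a. Rgs13, an R4 gene with too few UMIs for the counts above, had 18 of its 23 PVH UMIs in this cluster, which is 12.4 CPM (7.34 to 19.6). It was named after its values had been seen. In cluster 6 (197 nuclei, led by Esr2 and Reln among others) Rgs6 was at 253 CPM (log2 1.55), carried by 68 nuclei with up to 30 UMIs each, and Pde3a at 45.3 CPM (log2 1.47). Pde1c (log2 −2.24), Gng7 (log2 −1.51) and Rgs16 (2 UMIs) were low there.

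Cluster 10 (130 nuclei, led by Fgf10 and Ndst4 among others) had the largest ratio among members with at least 50 UMIs on the side. Pde3a ranged over the 14 PVH clusters from no UMI, in clusters 4 and 8, over a median of 6.65 to 129 CPM in cluster 10, 9.69-fold over the other neurons (log2 3.28, 2.91 to 3.63). The zeros allow at most 2.54 CPM in cluster 4 and 3.30 CPM in cluster 8. Pde10a was also highest in cluster 10, at 1244 CPM (log2 1.19, 1.09 to 1.29), so that a pair of dual-specificity phosphodiesterases had their maximum in the same cluster. Rgs10 followed at a log2 ratio of 0.88. Gnai1 (log2 −1.31), Rgs6 (log2 −1.30) and Rgs16 with 1 UMI were low there.

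Clusters 14 (87 nuclei) and 11 (108 nuclei) had the highest levels of Pde4b and Adcy8. Pde4b ranged in PVH from 153 CPM over a median of 444 to 3307 CPM in cluster 14 (log2 2.58, 2.51 to 2.66), where it was seen in all 87 nuclei, and it was at 2266 CPM in cluster 11 (log2 2.02). Adcy8 ranged from 12.1 CPM over a median of 58.7 to 472 CPM in cluster 14 (log2 2.97, 2.77 to 3.18), with cluster 11 second at 145 CPM and no overlap of intervals. Adcy7 and Pde3a were the lowest members of cluster 14, with 2 UMIs and 1 UMI, beside Rgs16 with none (at most 6.93 CPM), and Gng12 was past the fold from 14 UMIs (log2 1.25). In cluster 11, 10 of 61 members were past 2-fold (16.4%, against 4.52% of all genes), among them Pde1c at 342 CPM (log2 1.90), Adcy2 at 546 CPM (log2 1.57), Gnb4 at 128 CPM (log2 1.49) and Pde8a at 40.9 CPM (log2 1.34). Rgs16 had no UMI there (at most 4.58 CPM), Pde3a had 2 and Rgs6 was at a log2 ratio of −2.05. The nuclei of cluster 11 were the deepest of the side, with a median of 7134 UMIs against 4322 to 6109 in the other clusters, and the part of depth in these ratios was not tested.

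Outside the Sim1-like clusters, PVH cluster 8 (184 nuclei, led by Sim2 and Crhr2 among others) had Pde1c at 396 CPM (log2 2.25, 2.09 to 2.41), Rgs22 at 75.2 CPM (log2 2.62, lower bound 2.23) and Rgs4 at 16.1 CPM from 18 UMIs (log2 1.78). It also held Sim1 at 200 CPM, but passed only Sim1 and Otp of that list. Rgs22 and Rgs4 were past 2-fold in unnamed PVH cluster 12 (102 nuclei) too, second highest at 32.4 and 15.4 CPM. For Rgs4 the intervals of clusters 8 and 12 overlapped. Cluster 12 held Sim1 at 213 CPM and likewise passed only Sim1 and Otp of that list. In the thalamic-like cluster (cluster 13, 96 nuclei) Rgs3 was at 44.6 CPM (log2 2.17, 1.51 to 2.77), followed by Pde9a, the cGMP-specific enzyme of neurons, at 68.6 CPM (log2 0.96), and by Pde1b (log2 0.81). Pde1c was at 25.7 CPM (log2 −2.06), and Rgs2 and Gng12 had 2 UMIs each. In the dopaminergic-like cluster of this side (cluster 9, 175 nuclei, led by Onecut3 and other Onecut genes) Adcy1 was at 27.7 CPM (log2 1.09) and Adcy2 at 353 CPM (log2 0.87), followed by Rgs3 (log2 0.76, −0.05 to 1.48). Rgs6 was at 9.59 CPM (log2 −3.44), Pde1c at −1.49 and Rgs22 at −1.41 on the log2 scale. Adcy7 was at 25.6 CPM in it, above a median of 21.8 over the PVH clusters but within the range of the glutamatergic clusters.

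Of the 6 members known to act together in striatal neurons, Gnal, Adcy5, Gng7, Pde10a, Pde1b and Rgs9, 1 was past the fold between sides (Rgs9), 2 between transmitter classes in ARC in opposite directions (Rgs9 and Pde10a) and 1 in PVH (Gng7). Pde10a alone of them was past 2-fold in a cluster, on both sides. Over all genes the matching shares were 5.26% between sides, 4.10% (GABAergic) and 5.17% (glutamatergic) in ARC, and 3.93% (GABAergic) in PVH. For the highest cluster they were 23.0% in ARC and 24.3% in PVH. With 6 genes these counts are a description of the set. Of 38 other genes of the pathway (protein kinases A and G, Epac, guanylate cyclases, phospholipases C beta, GIRK channels, receptor kinases, arrestins, chaperones and CREB-family factors), 35 were counted between sides, of which 2 were higher in PVH (background 5.53%) and 1 in ARC (background 5.26%). In ARC 10 of 35 and in PVH 6 of 34 were at least 2-fold higher in their highest cluster, near the shares of all genes (23.0% and 24.3%). Prkar2b, a regulatory subunit of protein kinase A, was highest in the AGRP-like cluster (log2 1.46, 1.31 to 1.61), as was the GIRK channel gene Kcnj5 (log2 1.60, 0.86 to 2.32). In PVH Kcnj5 was highest in the thalamic-like cluster (log2 3.87, 2.98 to 4.71). Grk3, a receptor kinase, was highest in ARC in the KNDy-like cluster (log2 1.70, 1.52 to 1.88). Prkg2, cGMP-dependent protein kinase 2, was higher in PVH (log2 1.37, 1.06 to 1.69), and its highest PVH cluster was cluster 10 (log2 1.80, 1.27 to 2.29), the same as that of Pde3a. Plcb1, a Gq effector, was higher in PVH (log2 0.72), in glutamatergic clusters in ARC (log2 −0.59) and in GABAergic clusters in PVH (log2 0.76).

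No cluster was read as non-neuronal at the resolution used. At a resolution of 1.2 a group of 30 ARC nuclei with astrocyte and tanycyte markers separated, with a median of 2557 UMIs. In it 16 of 67 members were at least 2-fold higher than in neurons (background 16.1%) and 29 were lower (background 43.0%). The interval of the ratio left out 0 for 10 of the former (background 6.43%) and 8 of the latter (background 5.00%), since these nuclei held 87833 UMIs in all and many members had few or none. Rgs20 was at 478 CPM in these nuclei and 63.8 in neurons (log2 2.91, 2.43 to 3.35), Adcy8 at 228 and 22.4 CPM (log2 3.34), Pde7b at 398 and 96.7 CPM (log2 2.04) and Adcy2 at 421 and 146 CPM (log2 1.53). Pde10a, at 114 against 660 CPM (log2 −2.54), and Pde4d, at 501 against 1360 CPM (log2 −1.44), were lower in them.

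The 9 members below 50 UMIs over both sides were Gnat2, Gna15, Gng8, Gng11, Gng13, Rgs13, Rgs21, Pde6b and Pde6c, at 14 to 44 UMIs. Rgs13 had 3 UMIs in ARC and 23 in PVH (log2 3.16, 1.43 to 5.54), and Pde6b, a rod phosphodiesterase subunit, had 11 and 28 (log2 1.57, 0.52 to 2.72). The others had intervals that held 0.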

How the data were processed

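The single pool of nuclei gave a cDNA library and a hashtag library. Deposited values are unnormalized UMI counts for each gene and hashtag in each barcode. The submitters' processing notes name Cell Ranger 5.0, Seurat 4 and the mm10 build, and the matrix header names Cell Ranger 4.0.0. The sources used here do not say whether introns were counted.

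In R 4.3.3 with Seurat 5.3.0, 10170 nuclei remained that had over 800 but under 5000 genes, up to 12000 counts and up to 1% mitochondrial counts. Genes in fewer than 3 nuclei were dropped. HTODemux (positive quantile 0.8) assigned 6841 nuclei to 1 hashtag, called 944 doublets and left 2385 unassigned. Doublets were removed by hashtag only, so those of 2 nuclei with the same hashtag remain. Each side was clustered separately (2000 variable genes without the members, 30 components, 20 neighbours, Leiden resolution 0.55, leidenbase 0.1.32). To be named, a cluster had to pass the leading marker of 1 class only and 3 or more of its markers (1.5-fold, 3 UMIs). Clusters passing 3 non-neuronal markers of a type stayed unnamed. These thresholds were set after the data were seen.

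UMIs were summed per side, transmitter class or cluster in Python 3.11.15 (scipy 1.17.1), with exact Poisson intervals for CPM and exact binomial intervals for ratios, both 95% and for counting error only. With 1 sample per group there was no test. A fold of 1.5 (sides, transmitter) or 2 (clusters) with at least 50 UMIs counted as past the fold. Total UMIs were 19492658 in ARC and 16732895 in PVH, and 997 to 11970 per nucleus. On simulated counts for the comparison of sides over 15861 genes, 200 genes with at least 200 UMIs over both sides were set 2-fold apart. Of these, 99.5% came out past 1.5-fold. This share does not cover the members past the fold between sides with fewer UMIs, namely Gnb3, Gna14, Rgs16 and Pde5a. Gene positions are from GENCODE M21 (GRCm38). Some alpha subunits and cyclases are not reported here. The members, lists and marker genes were chosen with earlier results of these data known. By the naming rule, members were named that were past the fold between sides with an interval without 0, past it between transmitter classes on both sides or among the 6 largest on 1 side, among the 12 largest per side in their highest cluster, among the 3 largest or 3 lowest per named cluster, first of their role, or next to the minimum of barcodes. Other members were named after their values had been seen. Alternatives were another hashtag quantile, filters, resolutions, thinning to 1000 UMIs, other minimums and folds, and leaving out clusters with non-neuronal markers (for transmitter classes and clusters, added after seeing the data).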

Additional observations from a re-analysis of the deposited data

Results flagged for a closer look

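Rgs6 and Adcy1 differed between transmitter classes in opposite directions on the 2 sides, which is what drew attention to them. Both intervals of each left out 0, and each was past the fold on at least 1 side. Such reversals were not particular to them. Gnb4 (0.38 in ARC, −0.30 in PVH), Pde9a, Pde3b, Pde8b and Pde4d also reversed with intervals without 0, below the fold. Rgs16 was past the fold both ways (−0.65 in ARC, 0.74 in PVH), but its ARC interval held 0. The log2 ratio of GABAergic over glutamatergic clusters was 1.03 in ARC and −0.77 in PVH for Rgs6, and −1.23 in ARC and 0.43 in PVH for Adcy1. With 1 sample per side the difference between the sides was not tested. For Rgs6 the AGRP-like cluster (348 CPM) is GABAergic and PVH cluster 4 (354 CPM) is glutamatergic. For Adcy1 the highest ARC cluster is the glutamatergic KNDy-like cluster (49.6 CPM) and the highest PVH cluster the GABAergic dopaminergic-like cluster 9 (27.7 CPM).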

How the results depend on the processing

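Of 802 single-gene values under the alternatives, 640 stayed within the counting interval of the reported value in the same direction, 154 moved beyond it without a change of sign and 8 changed sign. The sign changed for Pde1c between sides within GABAergic clusters (−0.18) and for Pde5a within glutamatergic clusters (0.43). Between transmitter classes it changed in ARC at a hashtag quantile of 0.99 for Gna14 (0.77), Rgs16 (0.18) and Pde11a (0.49), in nuclei thinned to 1000 UMIs for Rgs16 (0.42 in ARC, −1.36 in PVH), and at a resolution of 1.2 for Gng5 in PVH (0.031). The 8 members higher in PVH became 4 after thinning and 2 at a fold of 2. The 4 higher in ARC became 2 at the quantile of 0.99, after thinning and at a fold of 2, 1 at a minimum of 200 UMIs and 12 within GABAergic clusters. The 3 members higher in ARC GABAergic clusters became 9 at the quantile of 0.99, 5 with both sides clustered together and 10 without clusters with non-neuronal markers, and the 10 higher in glutamatergic clusters became 6 at the quantile of 0.99. In PVH thinning took the 6 members higher in GABAergic clusters to 2 and the 10 higher in glutamatergic clusters to 5. Members past the fold in their highest cluster numbered 11 in ARC and 9 in PVH at a fold of 3, and in PVH 8 at the quantile of 0.99 and 13 at a resolution of 0.3. Thinning lowers the number of members with 50 UMIs (from 66 to 59 between sides), and for the other settings the cause was not tested. At the quantile of 0.99 the PVH side had 407 nuclei in 3 clusters, and no transmitter comparison could be made there. Non-neuronal nuclei had no value at the main resolution. No paired analysis was possible because the nuclei form 1 pooled sample with no replicates, and no replicate could be left out. At these depths members under 50 UMIs have wide counting intervals.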
